A study of Homo sapiens with 6 samples.

Results

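The comparison described here is the RNA-seq response of HCC1937 cells to an siRNA against LARP7 (siLARP7), set against the control siRNA siNC. Its members are the genes that reached 1 RPKM (reads per kilobase of gene, scaled to the library's depth) in at least 1 of the 2 libraries, 15797 of the 63568 entries in the table. After second copies of genes on alternate sequences were left out, 14402 genes remained, of which 10921 are protein-coding. Just inside the level minimum lay SH2D5 with 0.985 RPKM under siNC and 1.00 under siLARP7, and just outside it SLC12A2 with 1.00 (rounded up) and 0.665.

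HCC1937 is a basal-like breast cancer line that lacks functional BRCA1, and both libraries come from it. The cells were grown in RPMI medium with serum. Of the libraries 1 is from cells given siLARP7 and the other from cells given siNC, each siRNA at 10 ng/ml. The RNA is given as total RNA, and whether poly(A) RNA was then selected is not given. The depth behind the RPKM values, worked out from those values, was 50.62 M and 49.33 M reads. MDA-MB-231 cells, a breast cancer line with mesenchymal features and intact BRCA1, received siLARP7 or siNC at that dose in L-15 medium and serve here as a second pair of libraries. The labels give neither the siRNA sequences nor the time of harvest. Each group is 1 library, so there is no replicate error, no p-value is given, and every difference is one between 2 libraries.

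LARP7 is a La-related protein that binds and stabilises the 7SK RNA. The 7SK particle, with HEXIM proteins, holds the kinase P-TEFb (CDK9 with a T-type cyclin) in an inactive form, and released P-TEFb phosphorylates RNA polymerase II and pausing factors so that paused polymerases move on. Immediate early genes and heat shock genes are textbook examples of genes controlled at this step. The series names LARP7 as a substrate of BRCA1, the repair protein and ubiquitin ligase subunit that HCC1937 lacks in functional form.

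The targeted gene was checked first. LARP7 was at 5.62 RPKM under siNC and 2.89 under siLARP7, which is 51.4% of the control (95% Clopper-Pearson interval 46.5 to 56.8%, from about 1131 and 597 reads). On the log2 scale of RPKM + 1, used for every ratio here, the difference was -0.77. It was -0.65 after scaling and -0.34 with the transcript sequence trend taken out, both described further on. The authors' deposited table gives -0.79 for LARP7 by GFOLD, a program that shrinks log2 changes. Intervals of this kind cover counting error only and not the spread between cultures. They treat each read as independent, so they are too narrow where reads are PCR copies of the same molecule. The 7SK RNA itself (RN7SK) had 6.61 RPKM under siNC and 5.25 under siLARP7, or 79.4% of the control, and the interval of 59.2 to 106% includes no difference. Of the 12 measured genes of the 7SK particle and P-TEFb, 0 had a log2 ratio of 1 or more in size. Of all genes 0.375% were that much higher and 1.29% that much lower. On the scaled values 1 of the 12 was at least 1.5-fold lower, against 7.11% of all genes, and 0 were higher. The list's median log2 ratio was -0.30 as deposited, -0.17 scaled and, over 11 of the genes, 0.01 with the trend removed. MEPCE, the 7SK capping enzyme, was at 16.0 and 11.2 RPKM, HEXIM1 at 16.3 and 12.8, and CDK9 at 20.7 and 18.8. Among the 6 other La-related proteins LARP4 was at 5.62 and 2.44 RPKM and LARP6 at 18.7 and 22.6. The median log2 ratio of these 6 was -0.46 as deposited, -0.32 scaled and -0.12 with the trend removed. Over all protein-coding genes it was -0.16 as deposited and -0.04 scaled.

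A gene was called when its log2 ratio was at least 1 in size. As deposited, 54 genes were called higher (0.375%) and 186 lower (1.29%), of which 19 (0.174%) and 106 (0.971%) were protein-coding. The siLARP7 values lay lower as a whole, by a median log2 of -0.15 over the 12827 genes at 1 RPKM in both libraries. When the siLARP7 values were multiplied by 1.11 to bring that median ratio to 1, the split became 99 higher (0.687%) and 117 lower (0.812%), with 38 (0.348%) and 55 (0.504%) protein-coding. A trimmed mean in place of the median gave 102 (0.708%) and 116 (0.805%), with 39 (0.357%) and 54 (0.494%) protein-coding. Both scales called 19 protein-coding genes higher and 55 lower, and the largest of these are described first. Under the second, scaled rule of 1.5-fold, 720 genes were higher (5%) and 1024 lower (7.11%), and of the protein-coding genes 392 (3.59%) and 713 (6.53%). Counts of gene list members at 1.5-fold below are on these scaled values, to be read beside these shares. Nearest to the limit of 2-fold as deposited were PIM1 at 1.01 and TTC36 at 0.999 on the upper side, and SLC16A13 at -1.0 and GOPC at -0.99 on the lower side. In bulk RNA, fewer cells of a type and less RNA per cell cannot be told apart, and this holds for every group of genes below.

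The ratio moved with the base composition and length of the transcripts across the whole transcriptome, and this was measured before single genes were read. When protein-coding genes were divided into 5 groups of equal size by GC content, 16.6% of the lowest group were at least 1.5-fold lower on the scaled values and 0.183% higher. In the group with the highest GC content, 0.641% were lower and 11.4% higher. From the group with the shortest to that with the longest transcripts, the share lower went from 3.43% to 10.6% and the share higher from 7.42% to 1.01%. Across 10917 genes, which share the same 2 libraries and are not independent, the log2 ratio had a Spearman correlation of 0.57 with GC content and -0.29 with transcript length, given as a description. The median GC content was 49.7% over all protein-coding genes, 61.7% over the 19 called higher on both scales and 40.6% over the 55 called lower. The median transcript lengths were 3420, 1936 and 4061 bases. A value with the trend removed, printed beside gene groups below, is the log2 ratio minus a smooth trend on GC content, length and level, centred on 0. With the trend removed, 17 protein-coding genes were at least 2-fold higher (0.156%) and 13 lower (0.119%), and 197 (1.8%) and 250 (2.29%) at least 1.5-fold. Of those called on both scales, 17 of the 19 and 54 of the 55 were still at least 1.5-fold apart, but only 13 and 8 at least 2-fold. Whether the trend comes from the cells or from the making of the libraries cannot be told apart with 1 library per group.

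**Figure D1:**
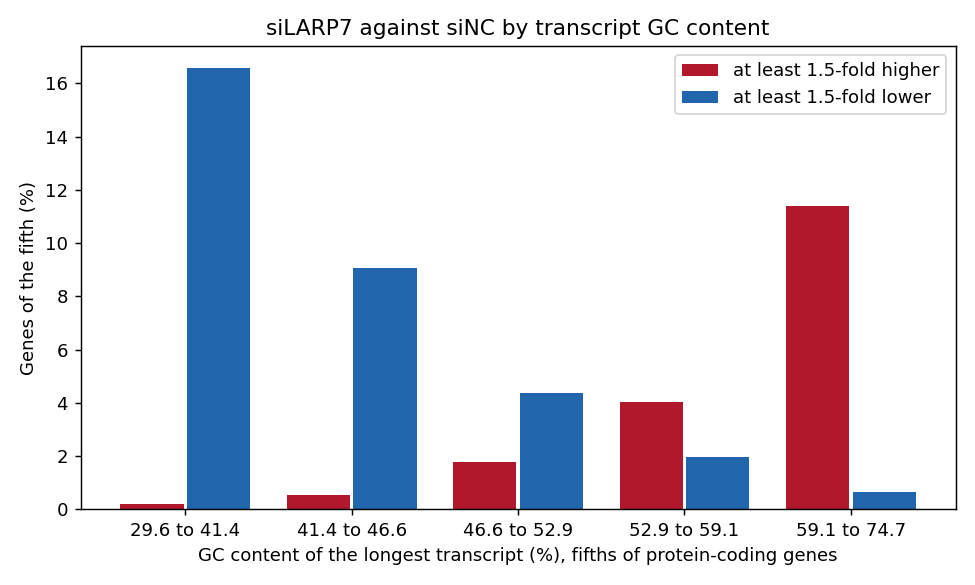
Share of protein-coding genes (y axis, percent) at least 1.5-fold higher (red) or lower (blue) under siLARP7 in HCC1937, scaled to a median ratio of 1, in 5 groups of equal size by transcript GC content (x axis, percent), 1 library per siRNA. The share lower goes from 16.6% in the lowest group to 0.641% in the highest, and the share higher from 0.183% to 11.4%.

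The protein-coding genes highest in ratio under siLARP7 included histone genes, described further on, and genes of diverse known roles. TMEM238, a small transmembrane protein, was at 84.8 RPKM under siNC and 285 under siLARP7, 335% of the control (interval 324 to 347%). Its log2 ratio was 1.73, and 1.06 with the trend removed, its transcript having a GC content of 73.7%. CDKN1C, the cyclin-dependent kinase inhibitor p57, was at 2.0 and 7.30 RPKM, 365% of the control (317 to 423%). CDKN1C was the only member called among 14 measured CDK inhibitors, D cyclins and their partners. CDKN1A, which encodes p21, was at 24.9 and 25.9 RPKM, and CCND1, which encodes cyclin D1, at 116 and 78.3. ID4, an inhibitor of basic helix-loop-helix transcription factors, was at 16.4 and 39.2 RPKM, 239% of the control (226 to 252%), and its log2 ratio of 1.21 as deposited was 1.35 with the trend removed. PER1, a repressor of the circadian clock, was at 4.33 and 10.9 RPKM, and IER5L, a relative of the immediate early gene IER5, at 13.6 and 34.7. PHLDA2, an imprinted growth regulator, was at 75.4 and 163 RPKM, and SAMD1, which binds unmethylated CpG islands, at 24.8 and 54.0. The kinase gene PIM1, just past the limit, was at 52.2 and 106 RPKM. For each of these 8 genes the counting interval lay above the control level, but the spread between cultures is unknown.

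Replication-dependent histone genes were higher as a group. They encode the core and linker histones made in S phase, most of their mRNAs end in a stem-loop without a poly(A) tail, and they lie in clusters on chromosomes 6 and 1. Of 89 listed, 37 were measured, and 25 of these were at least 1.5-fold higher and 1 lower on the scaled values, against 3.59% and 6.53% of all protein-coding genes. With the trend removed 18 of 33 were higher and 1 lower. The median log2 ratio was 0.68 as deposited, 0.79 scaled and 0.61 with the trend removed, beside -0.16 and -0.04 over all protein-coding genes on the first 2 of these scales. On the scaled values 36 of the 37 were above 0. The exception was the H4 gene HIST1H4B, with 1.02 RPKM under siNC and 0.166 under siLARP7. The list passed the level minimum with 37 of 89 members, so genes near the minimum could enter it through the library in which they were high.

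The H2A pair HIST2H2AA3 and HIST2H2AA4 had the largest ratios of all protein-coding genes. HIST2H2AA4 was at 54.7 and 190 RPKM and HIST2H2AA3 at 53.3 and 185, but the pair are near-identical copies whose reads the counting could split, so their separate values are uncertain. HIST2H2BE, which encodes an H2B, had 5.49 and 16.9 RPKM, 308% of the control (281 to 339%). Its log2 ratio was 1.47 as deposited and 1.67 with the trend removed, and the authors' deposited table gives 1.47 by GFOLD. HIST1H2AE, an H2A gene, was at 3.63 and 9.35 RPKM, HIST1H3H, an H3 gene, at 3.34 and 8.39, and HIST1H2BC, an H2B gene, at 2.67 and 6.47. The linker histone gene HIST1H1C was at 23.4 and 39.5 RPKM, and HIST3H2A, the most abundant of the group under siNC, at 73.8 and 121. At the other end, HIST1H2BK was at 40.0 and 44.7 RPKM and HIST1H4H at 1.00 and 1.03. The factors that cut and process histone mRNAs were not higher. Of 14 measured, 0 were higher and 4 lower by 1.5-fold, and 0 either way with the trend removed, with SLBP, the stem-loop binding protein, at 29.4 and 26.8 RPKM and NPAT, the coactivator of histone genes, at 1.52 and 0.498.

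**Figure D2:**
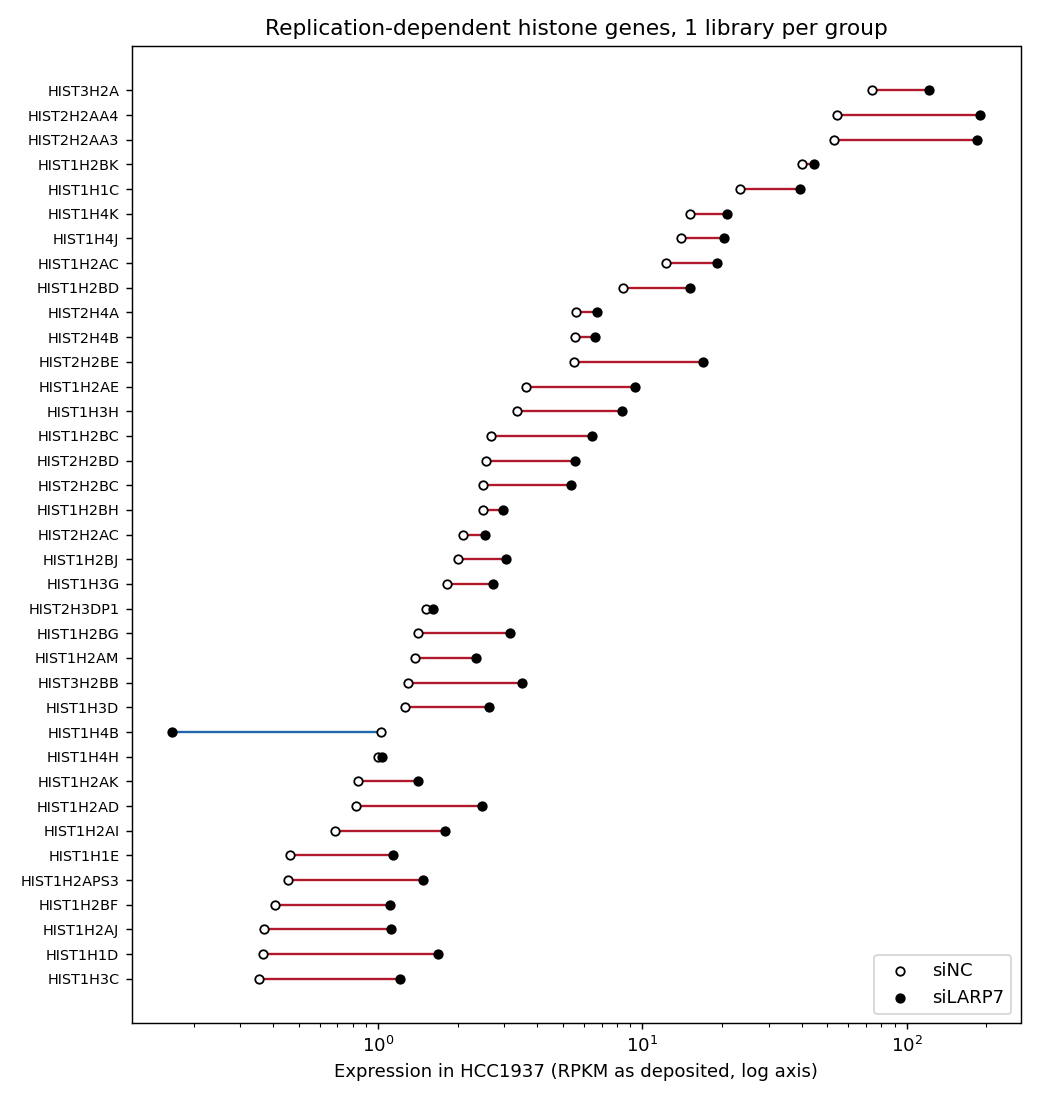
Expression (x axis, RPKM as deposited, log axis) of the 37 measured replication-dependent histone genes in HCC1937 under siNC (open) and siLARP7 (filled), 1 library per group, ordered by their siNC level. A red line joins genes higher under siLARP7 and a blue line the lower HIST1H4B, which went from 1.02 to 0.166 RPKM.

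The promoters of 4 called histone genes are printed because the group moved together, with those of DUSP1, a called immediate early gene, and RARS, a called lower gene. Each is a RefSeq window from 250 bases before to 50 bases after the annotated start, read on the strand of the gene. Capitals mark matches, on either strand, to any of 4 motifs. The CCAAT box was searched by the letters of its name. The TATA element was searched as TATAAA. The octamer known from H2B promoters was searched as ATTTGCAT and the cAMP response element as TGACGTCA. The 4 motifs and the examples were chosen after values and matches had been seen.
HIST2H2BE (H2BC21 in RefSeq), GRCh38.p14 chr1:149886633-149886932, minus strand: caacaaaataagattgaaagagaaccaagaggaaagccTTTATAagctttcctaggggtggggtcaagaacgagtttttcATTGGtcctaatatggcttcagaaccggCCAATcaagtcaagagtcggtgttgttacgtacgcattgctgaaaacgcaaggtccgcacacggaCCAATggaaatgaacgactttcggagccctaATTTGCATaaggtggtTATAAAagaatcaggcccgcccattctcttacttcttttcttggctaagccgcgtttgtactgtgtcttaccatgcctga
HIST1H2BC (H2BC4 in RefSeq), GRCh38.p14 chr6:26123877-26124176, minus strand: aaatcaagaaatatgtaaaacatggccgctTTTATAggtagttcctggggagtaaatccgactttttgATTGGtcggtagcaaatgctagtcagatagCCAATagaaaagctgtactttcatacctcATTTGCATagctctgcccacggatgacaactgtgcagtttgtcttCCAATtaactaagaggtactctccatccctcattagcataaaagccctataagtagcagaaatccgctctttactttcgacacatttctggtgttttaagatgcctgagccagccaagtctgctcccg
HIST1H2AE (H2AC8 in RefSeq), GRCh38.p14 chr6:26216671-26216970, plus strand: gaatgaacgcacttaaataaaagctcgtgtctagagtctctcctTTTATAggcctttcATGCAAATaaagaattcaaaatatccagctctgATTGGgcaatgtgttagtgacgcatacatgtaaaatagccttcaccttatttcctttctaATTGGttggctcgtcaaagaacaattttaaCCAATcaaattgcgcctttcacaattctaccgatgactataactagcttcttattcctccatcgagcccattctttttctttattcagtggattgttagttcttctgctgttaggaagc
HIST1H3H (H3C10 in RefSeq), GRCh38.p14 chr6:27809801-27810100, plus strand: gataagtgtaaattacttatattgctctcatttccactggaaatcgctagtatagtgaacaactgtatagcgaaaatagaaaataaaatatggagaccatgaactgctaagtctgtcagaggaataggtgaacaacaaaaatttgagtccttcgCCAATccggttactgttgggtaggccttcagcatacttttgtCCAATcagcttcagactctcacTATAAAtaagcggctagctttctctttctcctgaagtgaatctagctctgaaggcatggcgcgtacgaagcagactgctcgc
DUSP1, GRCh38.p14 chr5:172771146-172771445, minus strand: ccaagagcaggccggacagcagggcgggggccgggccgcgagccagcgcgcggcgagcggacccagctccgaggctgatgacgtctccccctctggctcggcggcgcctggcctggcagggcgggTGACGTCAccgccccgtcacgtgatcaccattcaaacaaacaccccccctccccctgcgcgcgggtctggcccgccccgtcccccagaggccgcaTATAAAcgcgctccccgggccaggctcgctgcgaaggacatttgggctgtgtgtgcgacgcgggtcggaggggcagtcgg
RARS (RARS1 in RefSeq), GRCh38.p14 chr5:168486221-168486520, plus strand: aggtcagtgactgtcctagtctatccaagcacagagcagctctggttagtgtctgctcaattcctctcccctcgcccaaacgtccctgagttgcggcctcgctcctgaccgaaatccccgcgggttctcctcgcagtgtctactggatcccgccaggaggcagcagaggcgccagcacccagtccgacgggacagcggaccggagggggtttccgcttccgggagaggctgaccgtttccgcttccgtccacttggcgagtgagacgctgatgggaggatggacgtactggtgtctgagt

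The window of HIST2H2BE holds an octamer at base 205 and a TATAAA at base 221, counted from the 5′ end of the window, and further CCAAT matches upstream. Those of HIST1H2BC and HIST1H2AE also hold an octamer, and that of HIST1H3H a TATAAA at base 219. The only TATAAA matches of HIST1H2BC and HIST1H2AE read on the opposite strand, at bases 31 and 45, far upstream of the start. The counts that follow take a match on either strand at any place in the window. DUSP1 holds a TATAAA at base 221 and the cAMP response element at base 126, and RARS holds none of the 4 motifs. Of the measured histone genes, 28 had 1 promoter in the table, and 22 of these hold CCAAT (78.6%), 17 TATAAA (60.7%) and 10 the octamer (35.7%). Among the 6306 tested protein-coding genes with a promoter the shares were 38.2%, 5.15% and 1.28%, and among all 22114 promoters 36.2%, 12.7% and 1.86%. The median promoter GC content was 44.8% for the histone genes, 66% for the tested genes and 57.7% for all promoters, so these shares are not matched for base composition. TATAAA was found in 8 of 15 promoters of genes called higher on both scales (53.3%), but 6 of these 8 are the histone genes already counted, and without histone genes it was found in 2 of 9 (22.2%). It was found in 2 of 39 of those called lower (5.13%). Of the 13 immediate early genes with a promoter 5 hold TATAAA (38.5%) and 2 the cAMP response element, which 3.87% of the tested genes hold. These are letters in a window and not sites shown to be bound.

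Immediate early genes, which encode AP-1 transcription factors and feedback regulators of growth signalling, tended to higher values. Of 22 measured, 5 were at least 1.5-fold higher and 0 lower on the scaled values, 3 and 0 with the trend removed, and the median log2 ratio was 0.25 as deposited, 0.38 scaled and 0.22 with the trend removed. Of all protein-coding genes 3.59% were higher and 6.53% lower, or 1.8% and 2.29% with the trend removed. DUSP1, the phosphatase that switches off MAP kinases, was at 14.3 RPKM under siNC and 31.0 under siLARP7, a log2 ratio of 1.06 as deposited and 1.05 with the trend removed. JUND was at 48.6 and 102 RPKM, also a log2 ratio of 1.06 but 0.58 with the trend removed. JUNB was at 139 and 221 RPKM, FOS at 2.31 and 4.09, and ATF3 at 19.6 and 28.7. FOSL1, the second most abundant AP-1 member under siNC, went the other way, with 122 and 99.5 RPKM. MYC was at 46.3 and 52.4 RPKM.

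Keratins, the intermediate filaments of epithelia, shared this tendency. Of 17 measured, 7 were at least 1.5-fold higher and 0 lower (3 and 0 with the trend removed), with a median log2 ratio of 0.39 scaled and 0.37 with the trend removed, and none was called at 2-fold. The shares over all protein-coding genes were 3.59% and 6.53%, and 1.8% and 2.29% with the trend removed. KRT15, a keratin of basal epithelium, was at 22.7 and 39.0 RPKM, KRT14 at 16.9 and 27.4, KRT5 at 10.1 and 15.4, and KRT16, a keratin of stressed epithelium, at 248 and 409. The luminal pair KRT8 and KRT18 were at 302 and 316 RPKM and at 278 and 270. The marker lists place both libraries with epithelium, and more of the basal than of the luminal hormone receptor markers were present. KRT8 and KRT18 are counted there among the general epithelial markers, and both stood far above KRT5 and KRT14. Of 10 basal markers 9 reached 1 RPKM, with summed levels of 626 RPKM under siNC and 855 under siLARP7, and SFN was the largest part of that difference, at 281 and 453 RPKM. EGFR, at 6.16 and 3.46 RPKM, TP63, at 1.57 and 0.957, and CDH3, at 56.9 and 56.3, were lower under siLARP7, and the other basal markers were higher. All 10 general epithelial markers reached 1 RPKM, with sums of 1152 and 1135. Of 10 luminal markers 3 did so, with sums of 43.4 and 37.0 RPKM, and the estrogen receptor ESR1 stood at 0.628 and 0.509. Of 10 mesenchymal markers 1 did, with sums of 2.52 and 2.63. Of the leukocyte and endothelial markers 2 of 10 each did, with sums of 35.3 and 43.5 and of 10.3 and 9.63. The leukocyte sum was nearly all CD68, a lysosomal protein not restricted to leukocytes, at 32.8 and 40.5 RPKM, while PTPRC was at 0.0095 and 0.0186 and CD3E and TYROBP were listed at 0.

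Stress genes differed in part. The counts stand against 3.59% higher and 6.53% lower among all protein-coding genes, and 1.8% and 2.29% with the trend removed. Of 17 measured heat shock chaperones and factors 5 were at least 1.5-fold higher and 0 lower, 2 and 0 with the trend removed, and the list's median was 0.15 scaled and -0.03 with the trend removed. HSPA1A and HSPA1B, the inducible chaperones, were at 56.7 and 95.6 and at 45.7 and 83.2 RPKM, and are near-identical copies whose separate values are uncertain. HSPB1, a small heat shock protein, was at 485 and 827 RPKM, whereas HSP90AA1, the stress-induced cytosolic HSP90, was at 164 and 106. In the list of the unfolded protein and integrated stress responses 4 of 30 were higher and 2 lower, or 2 and 0 with the trend removed, with DDIT3, which encodes CHOP, at 108 and 187 RPKM and the sensor ATF6 at 9.87 and 4.66. Of 25 cholesterol genes 4 were higher and 0 lower, or 3 and 0 with the trend removed, with INSIG1, the sterol-regulated brake on SREBP, at 9.80 and 18.2 RPKM. Of 22 p53 targets 4 were higher and 1 lower, with BBC3, the death gene PUMA, at 14.0 and 25.6 RPKM and the lower member XPC, a damage sensor of excision repair, at 4.06 and 2.02. With the trend removed 1 was higher and 0 lower. MDM2, within the limits, was at 3.41 and 2.14 RPKM. The antiviral interferon-stimulated genes had 1 higher and 3 lower of 33 and a scaled median of 0.01, and the 22 NF-kB targets 2 higher and 3 lower, including the only called member, IL1A, at 19.9 and 8.93 RPKM. Its log2 ratio was -1.07 as deposited and -0.94 scaled, so that the call was lost on scaling. With the trend removed, 0 interferon-stimulated genes were higher and 1 lower, and 3 NF-kB targets were higher and 2 lower.

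The most strongly lower protein-coding genes have diverse known roles. LRIF1, a partner of heterochromatin protein HP1, was at 9.17 RPKM under siNC and 2.58 under siLARP7, 28.1% of the control (interval 25.3 to 31.1%). RARS, the cytosolic arginyl-tRNA synthetase, was at 20.1 and 6.46 RPKM, 32.2% of the control (30.1 to 34.5%), and the authors' deposited table gives -1.52 by GFOLD. LTV1, an assembly factor of the small ribosomal subunit, was at 12.1 and 4.17 RPKM. METTL18, a protein histidine methyltransferase, was at 7.01 and 2.07 RPKM, and TRMT10C, a subunit of mitochondrial RNase P, at 6.84 and 2.03. ATAD2, a bromodomain ATPase, was at 23.9 and 8.89 RPKM, and NRIP1, a corepressor of nuclear receptors, at 6.57 and 2.04. FADD, the adaptor of death receptors, was at 16.3 and 6.01 RPKM, 36.8% of the control (33.3 to 40.6%). Unlike most called lower genes, FADD has a GC content above the median, 58.6%, and its log2 ratio was -1.31 as deposited and -1.33 with the trend removed. MRFAP1L1 was at 15.0 and 5.15 RPKM.

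**Figure D3:**
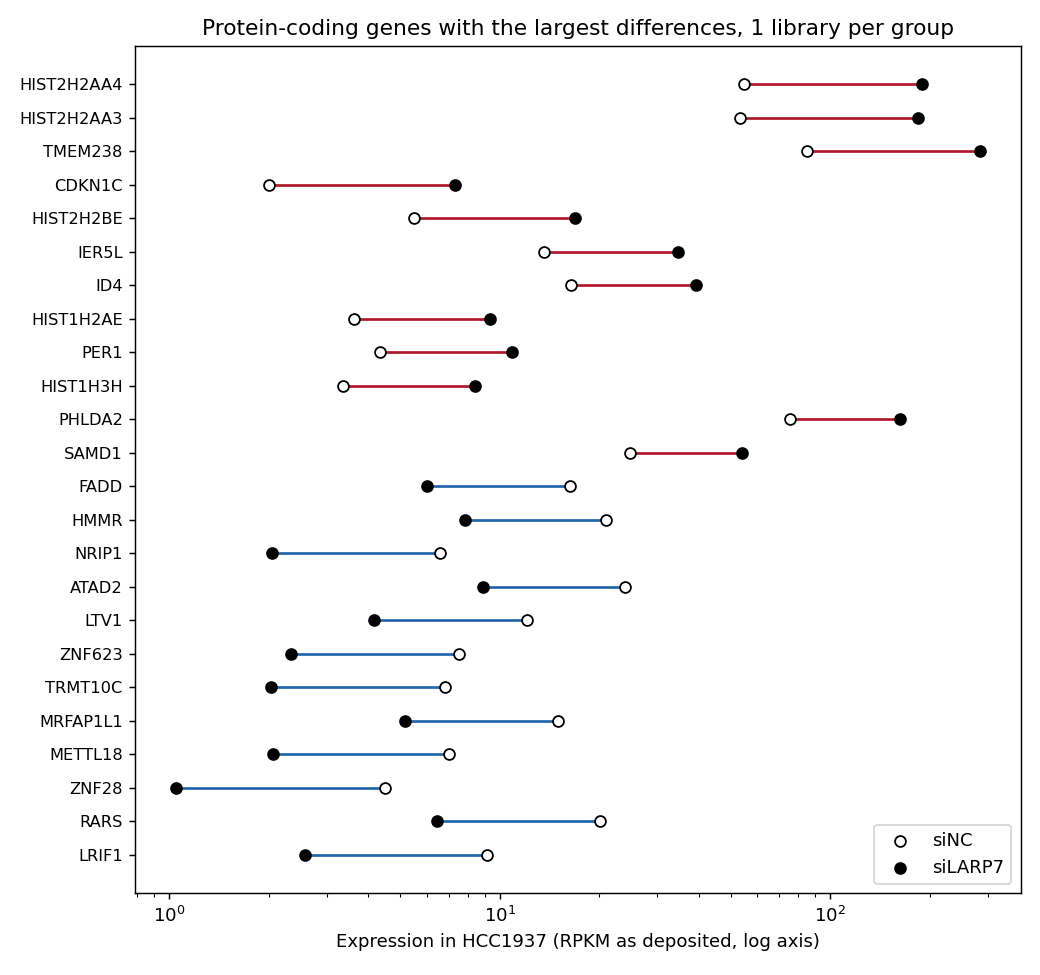
Expression (x axis, RPKM as deposited, log axis) of the 12 protein-coding genes with the largest and the 12 with the smallest ratios in HCC1937 under siNC (open) and siLARP7 (filled), 1 library per group. Red lines mark genes higher under siLARP7, from HIST2H2AA4 at 54.7 and 190 RPKM, and blue lines genes lower, down to LRIF1 at 9.17 and 2.58.

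BRCA1 transcript was among the lower genes. It was at 3.29 RPKM under siNC and 0.785 under siLARP7, 23.9% of the control (interval 21.2 to 26.8%, from about 1489 and 365 reads), a log2 ratio of -1.26 as deposited, -1.20 scaled and -0.86 with the trend removed. The authors' deposited table gives -1.86 for BRCA1 by GFOLD. That share of the control was below the 51.4% of LARP7, and the counting intervals of both do not overlap. Of 14 measured genes of BRCA1 and its direct partners 2 were at least 1.5-fold lower and 0 higher, and BRCA1 alone was lower with the trend removed. The other was PALB2, which links BRCA1 to BRCA2, at 2.89 and 1.03 RPKM, while BARD1, the obligate partner of BRCA1, was at 2.11 and 1.24. Of 23 homologous recombination genes 4 were lower and 0 higher, and their median was -0.22 scaled and -0.13 with the trend removed. Of 15 Fanconi anemia genes 3 were lower, of 12 end joining genes 2, of 19 mismatch and excision repair genes 2, and 0 were higher in any of these 3 lists, against 6.53% lower and 3.59% higher among all protein-coding genes. With the trend removed, 0 of the recombination, Fanconi and end joining genes and 1 of the mismatch and excision repair genes were lower. Of 17 checkpoint genes 1 was lower, RAD17, at 3.0 and 1.42 RPKM, and 1 higher, the histone variant H2AFX, at 125 and 184 RPKM. With the trend removed 0 checkpoint genes were lower and 0 higher.

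Genes of mitosis were lower more often than higher, and fewer passed 1.5-fold once the trend was removed. The lists of kinesins, kinetochore genes, cohesin and condensin, and G2/M genes had 6, 11, 5 and 6 lower members on the scaled values and 2, 3, 2 and 3 with the trend removed, and 0 higher on either. Over all protein-coding genes the shares lower were 6.53% scaled and 2.29% with the trend removed, and the shares higher 3.59% and 1.8%. The 13 mitotic kinesins had a median of -0.55 scaled and -0.30 with the trend removed. KIF14, needed for cytokinesis, was at 4.99 and 1.77 RPKM, and KIF11, the motor that separates spindle poles, at 6.22 and 2.48. The 35 kinetochore and spindle checkpoint genes had a median of -0.32 scaled and -0.15 with the trend removed. CENPE, the kinetochore motor, was at 3.87 and 1.03 RPKM, CENPF at 7.47 and 2.88, the kinetochore subunit DSN1 at 21.0 and 9.48, CENPQ at 7.64 and 3.21, and SGOL2, a protector of cohesin, at 4.78 and 1.73. The 21 cohesin and condensin genes had a median of -0.40 scaled and -0.21 with the trend removed, led by the condensin subunits NCAPG, at 11.4 and 4.46 RPKM, and SMC4, at 19.1 and 8.98.

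For the 32 genes of CDK1 and the G2/M transition the median was -0.26 scaled and -0.25 with the trend removed. HMMR, a spindle and hyaluronan-binding protein, was at 21.0 and 7.84 RPKM, MKI67, the proliferation marker Ki-67, at 25.0 and 11.1, and ECT2, the exchange factor that starts cytokinesis, at 32.0 and 14.9. On the scaled values 6 of the 32 were above 0, and some abundant members differed little as deposited. CDC20, which activates the anaphase-promoting ubiquitin ligase, was at 80.5 and 84.0 RPKM, AURKB at 31.0 and 30.7, PLK1 at 27.9 and 25.5, and UBE2C at 123 and 113. For UBE2C the log2 ratio was -0.13 as deposited but -0.22 with the trend removed, near the list median on that scale. The centrosome list had 3 lower and 0 higher of 22, and 0 either way with the trend removed. The list of DNA replication and G1/S had its scaled median at -0.05, with 4 lower and 1 higher of 46, the higher one being E2F1, at 65.2 and 93.0 RPKM, and with PCNA at 261 and 232. With the trend removed 0 of this list were lower and 0 higher.

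Components of the nuclear pore and tethers of the Golgi had low ratios as well. Counts here stand against 6.53% lower and 3.59% higher of all protein-coding genes, and 2.29% and 1.8% with the trend removed. Of 25 nuclear pore genes 7 were lower and 0 higher, but 1 was lower with the trend removed. Their median was -0.46 scaled and -0.23 with the trend removed, and RANBP2, the filament protein of the cytoplasmic face, was at 5.09 and 1.73 RPKM. Of 14 golgins and Golgi tethers 6 were lower and 1 higher, but 1 lower and 1 higher with the trend removed, and the median was -0.52 scaled and -0.24 with the trend removed. GOLGB1, or giantin, was at 4.92 and 1.57 RPKM, and the higher member was BICD1, a dynein adaptor, at 2.22 and 3.49. Of 278 C2H2 zinc finger genes, a few pseudogenes among them, 45 were lower and 9 higher, with a median of -0.28 scaled, and 11 were called lower as deposited. With the trend removed, 12 of 272 were lower and 2 higher, and the median was -0.11. ZNF28 was at 4.5 and 1.04 RPKM, ZNF623 at 7.51 and 2.33, and ZNF146 at 26.3 and 10.1, while ZNF358 went the other way with 62.7 and 116. Of 29 chromatin remodellers and lysine methyltransferases 4 were lower and 0 higher, and 0 either way with the trend removed, among them the remodeller ATPase SMARCA5, at 12.7 and 6.53 RPKM, and SETD2, the methyltransferase of histone H3 lysine in transcribed genes, at 5.41 and 2.92.

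**Figure D4:**
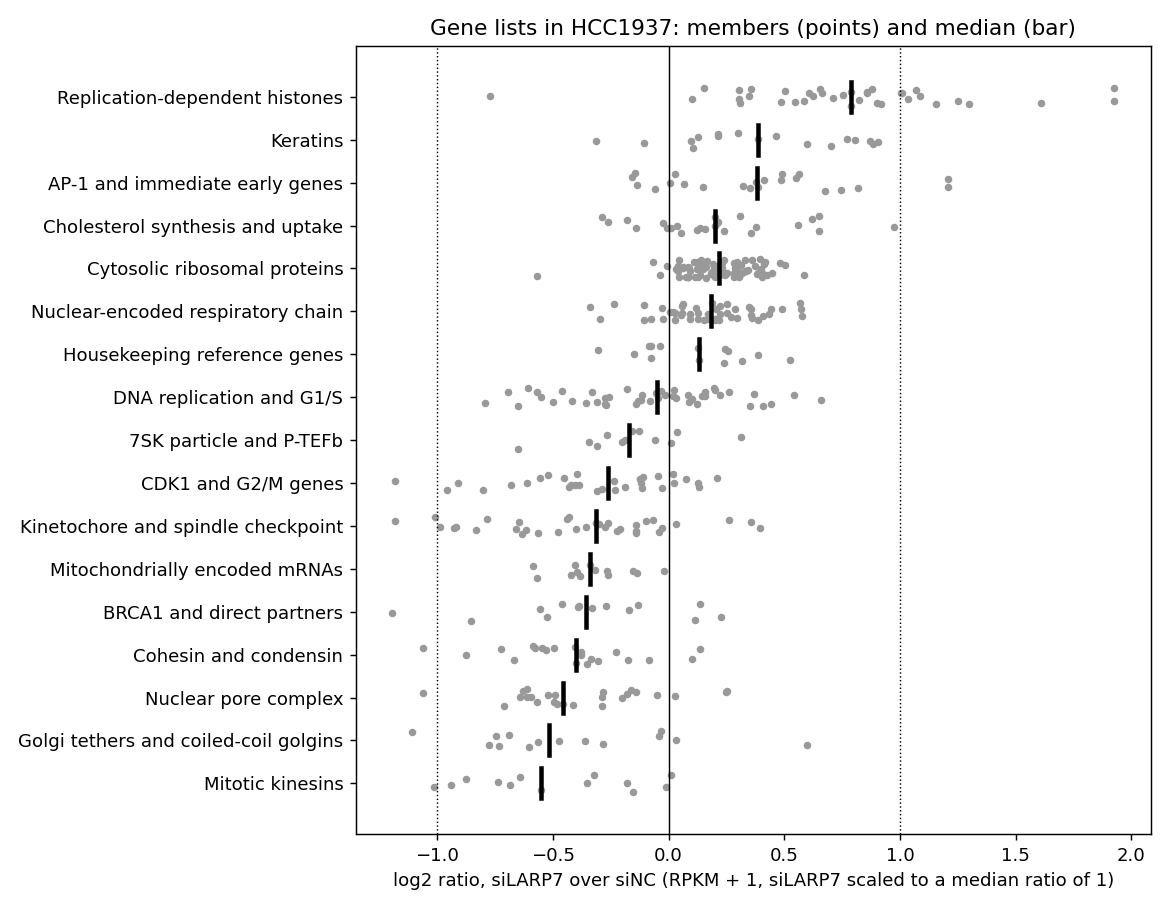
Log2 ratio of siLARP7 over siNC in HCC1937 (x axis, RPKM + 1, siLARP7 scaled to a median ratio of 1) of the measured members (points) of selected gene lists, with the list median (bar) and dotted lines at the call limits. Medians run from 0.79 for replication-dependent histones to -0.55 for mitotic kinesins, and the housekeeping genes lie at 0.13.

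Transcripts of the mitochondrial genome were lower under siLARP7. All 13 mRNAs, which encode subunits of the respiratory chain and ATP synthase, had scaled ratios below 0, with a median log2 of -0.49 as deposited, -0.34 scaled and -0.45 with the trend removed, but 1 of them passed 1.5-fold on the scaled values. MT-CO3 was at 730 and 437 RPKM, MT-ND3 at 555 and 336, and MT-CO1 at 1740.0 and 1544. All 13 come from 1 small genome transcribed as long precursors, so they are not independent. Of 22 mitochondrial tRNA genes 7 were called lower and 0 higher, against 1.29% and 0.375% of all genes, and their summed level was 4421 and 1860 RPKM. MT-TE, the tRNA for glutamate, was at 336 and 47.0 RPKM and MT-TA, the tRNA for alanine, at 1192 and 333. Both genes are 69 bases long, and their values rest on about 1142 and 164 and about 4057 and 1162 reads. Nuclear genes of the respiratory chain did not share the direction, with 42 of 50 above 0 and a scaled median of 0.18, and 35 of 75 mitochondrial ribosomal protein genes were above 0.

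Genes other than protein-coding ones made up 35 of the 54 called higher and 80 of the 186 called lower, out of 3481 tested. Of 1321 antisense genes 13 were called higher and 19 lower, and of only 154 miRNA genes 11 and 11. The shares over all genes were 0.375% and 1.29%. RN7SL1 and RN7SL2, near-identical RNAs of the signal recognition particle whose separate values are uncertain, were at 481 and 907 RPKM and at 853 and 1504. SNORD3A, a small nucleolar RNA of ribosomal RNA processing, was at 1.74 and 5.03 RPKM, and RMRP, the RNA of RNase MRP, at 1.51 and 0.590. Of 11 measured RNAs without a poly(A) tail 5 were at least 1.5-fold higher and 1 lower, against 5% and 7.11% of all genes. In other annotated classes the largest ratios were those of the antisense genes AC004471.9, at 1.64 and 7.47 RPKM, and AL031005.1, at 1.27 and 5.56, for which strand is not given. The authors' deposited table gives 1.66 for AC004471.9 by GFOLD but 0.11 for AL031005.1. RP11-573D15.1, a pseudogene at 0.123 and 1.98 RPKM, and RNU6-925P, at 0 and 1.71, rest on about 33 and 9 reads under siLARP7. Among the lower ones SNORD70 was at 5.72 and 0.697 RPKM and MIR922 at 5.01 and 0.732, each resting on about 3 reads under siLARP7. TUG1 was the only called member of 18 nuclear long noncoding RNAs, at 8.37 and 3.45 RPKM, and its log2 ratio of -1.07 as deposited was -0.95 scaled, short of a call, while MALAT1 was at 16.0 and 16.9.

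Counts in other epithelial and signalling lists were small, though not all lay below the shares of all protein-coding genes, 3.59% higher and 6.53% lower. Of 22 genes of epidermal differentiation and desmosomes 4 were at least 1.5-fold higher and 0 lower, with SFN above and SPRR1B, a precursor of the cornified envelope, at 6.21 and 9.97 RPKM. Of 17 EMT and TGF-beta genes 2 were higher and 1 lower. CDH1, which encodes E-cadherin, was at 30.2 and 20.4 RPKM. SNAI1, a repressor of E-cadherin, was at 3.5 and 5.61 RPKM. Of 19 growth factor receptors and ligands 0 were higher and 1 lower, MET, the receptor of hepatocyte growth factor, at 14.2 and 7.42 RPKM. Of 21 apoptosis regulators BBC3 was higher and 3 were lower, namely CASP8, an initiator caspase that FADD recruits, at 2.39 and 1.09 RPKM, and the inhibitors of apoptosis BIRC3, at 7.51 and 3.46, and BIRC2, at 7.85 and 4.32. Of 20 matrix genes 1 was higher and 0 lower, and the counts were 2 and 2 of 26 hypoxia and glycolysis genes and 1 and 1 of 22 NRF2 targets. No member of the 15 class I antigen presentation genes, the 13 SR splicing factors or the 4 measured metallothioneins passed 1.5-fold, and 1 of 13 noncoding snoRNA hosts was higher. With the trend removed, the counts higher and lower were 2 and 0 for epidermal genes, 0 and 1 for EMT genes, 0 and 2 for hypoxia genes and 1 and 1 for NRF2 targets. They were 0 and 0 for the growth factor, apoptosis and matrix lists.

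Abundant genes of general upkeep differed less. Of 82 cytosolic ribosomal protein genes 1 was at least 1.5-fold higher and 0 lower, with a scaled median of 0.22 and 0.04 with the trend removed. Of 31 proteasome subunits and 14 housekeeping reference genes 0 were higher and 0 lower. ACTB was at 830 and 932 RPKM and TBP at 4.5 and 3.57.

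The 24 protein-coding genes named by size in HCC1937 had ratios within the call limits in MDA-MB-231, where LARP7 itself was at 8.65 RPKM under siNC and 4.51 under siLARP7, a log2 ratio of -0.81. TMEM238 was at 2.38 and 2.83 RPKM in MDA-MB-231, HIST2H2BE at 0.707 and 0.489, and CDKN1C at 2.91 and 3.56. RARS was at 18.8 and 18.7 RPKM, LRIF1 at 3.23 and 2.99, and BRCA1 at 4.91 and 5.08. HIST1H2AE was listed at 0 in both MDA-MB-231 libraries, so that ratio carries no information, and HIST2H2BE was below 1 RPKM in both, where ratios on RPKM + 1 lie near 0. The 12 named higher genes had log2 ratios of -0.73 to 0.35 in MDA-MB-231 against at least 1.09 in HCC1937, and the 12 named lower genes -0.12 to 0.28 against at most -1.31. These genes were picked for their size in HCC1937, so the contrast of these ranges is a description of that choice. Of the 240 genes called in HCC1937, 217 reached the level minimum in MDA-MB-231. Of these 240 and the 203 called in MDA-MB-231 (0.517% higher and 0.748% lower of 16049), 10 were called in both, 4.17% and 4.93% of each list, 4 in the same direction and 6 in opposite ones, and 0 of the 10 were protein-coding. The list medians in MDA-MB-231, as deposited, were -0.08 for histones, 0.15 for immediate early genes, 0.01 for mitotic kinesins and 0.39 for mitochondrial mRNAs. On the same scale in HCC1937 they were 0.68, 0.25, -0.67 and -0.49. The histone median in MDA-MB-231 covers the 22 of the 37 genes at the level minimum there, and that of immediate early genes 20 of 22. With 1 library per group the difference between the lines could not be tested.

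**Figure D5:**
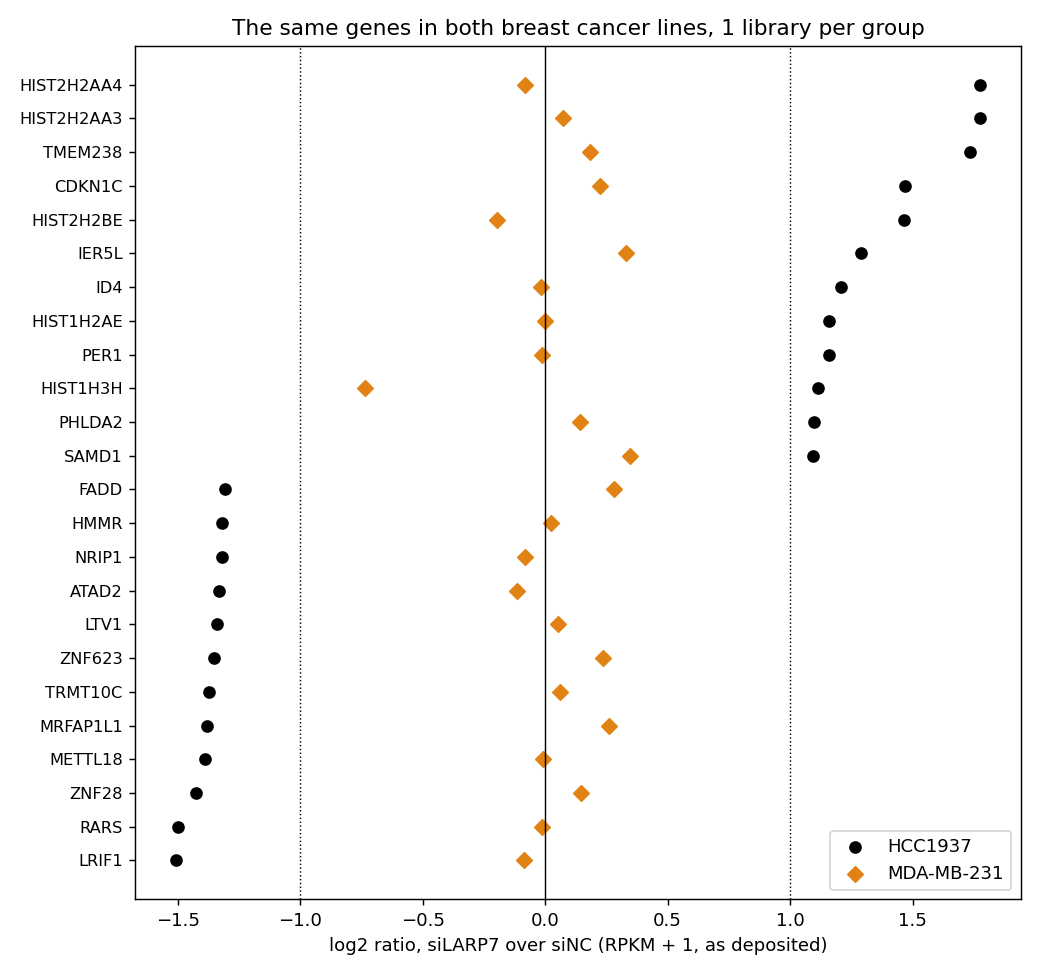
Log2 ratio of siLARP7 over siNC (x axis, RPKM + 1, as deposited) of the 24 protein-coding genes named by size in HCC1937 (black circles), with their ratio in MDA-MB-231 (orange diamonds), 1 library per group and line. All 24 lie past the dotted call limits in HCC1937, which is how they were chosen, and between -0.73 and 0.35 in MDA-MB-231.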

How the data were processed

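RNA-seq libraries of siLARP7-treated and siNC-treated HCC1937 and MDA-MB-231 cells were used, 1 library per group. The submitters' processing notes name cutadapt, FastQC, STAR and GRCh37. Tool versions, strand and poly(A) selection are not given in the sources used here. Expression is in RPKM as the authors deposited it, named so in the file headers. The deposited tables also hold the authors' log2 changes from GFOLD (setting 0.01), again named in the headers.

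From the RPKM values, log2((siLARP7 + 1)/(siNC + 1)) was computed for genes at 1 RPKM or more in either library. Ratios were also taken after scaling by 1.11 (median ratio 1) or by a trimmed mean, with a pseudocount of 0.1, with other level minimums, and with a cubic trend on GC content, length and mean level removed, which centres the median on 0. A call is a size of 1 or more on the log2 scale, with no test. Read depth was recovered from single-exon genes, which gave whole numbers of reads within 0.01 for 100% of 2813 and 2599 genes: 49.33 M reads under siNC and 50.62 M under siLARP7, so that 1 read in 1 kb is worth 0.0203 and 0.0198 RPKM. Approximate reads from GENCODE release 29 exon lengths gave exact 95% Clopper-Pearson intervals. Of the table's entries, 52526 matched that annotation by ID, 405 tested genes have no annotated class, and 47 pseudoautosomal entries on Y and 1395 second copies at the level minimum were left out. The rule for second copies was set, and revised once, after the data had been seen. Promoters are from RefSeq (GRCh38.p14), for genes with 1 entry, 300 bases each, and motifs were searched on both strands.

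The members and the 48 gene lists were chosen with earlier results of these data known. Named genes were the 12 largest and 12 smallest protein-coding ratios called on both scales, the 4 largest and 4 smallest of other classes, up to 6 called and the 2 most abundant members of each list, LARP7, RN7SK and BRCA1. Other genes, PIM1 and uncalled list members among them, were chosen after their values were seen, as were the motifs, the promoters shown and the centring of the trend. Not every gene that the rule names is printed. The steps were tested on simulated data. Python 3.11.15, pandas 2.3.3, numpy 2.4.6, scipy 1.17.1 and matplotlib 3.10.9 were used.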

Additional observations from a re-analysis of the deposited data

Results flagged for a closer look

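Some genes and 1 gene list had ratios of opposite direction in the 2 breast cancer lines, past 2-fold in both for the genes and past 0.3 on the log2 scale, a limit set after the data had been seen, for the list median. The difference was not tested in any of them, since each group is 1 library. AL592188.7, which has no annotated class or length here, was at 981 and 3106 RPKM in HCC1937 (log2 ratio 1.66) and at 795 and 242 in MDA-MB-231 (-1.71). MT-TS2, a mitochondrial tRNA gene of 59 bases, had log2 ratios of -1.52 in HCC1937 and 2.04 in MDA-MB-231. AC090340.1 had 1.21 and -1.59, AL691523.1 had -1.29 and 1.14, MIR3665 had 1.09 and -1.11, and MIR4674 had 1.09 and -1.64. In HCC1937 each of these 4 was listed at 0 in 1 library. The median log2 ratio of the 13 mitochondrial mRNAs was -0.49 in HCC1937 and 0.39 in MDA-MB-231.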

How the results depend on the processing

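The number of called genes depended on the scale and the pseudocount. The 54 genes higher became 99 at a median ratio of 1, 102 with a trimmed mean and 189 with a pseudocount of 0.1. The genes lower with siLARP7, 186 as deposited, became 117, 116 and 866 in turn, and 108 at a level minimum of 5 RPKM. The 19 protein-coding genes higher became 38, 39 and 47 under the first 3 settings, and the protein-coding genes lower with siLARP7, 106 as deposited, became 55, 54 and 562, and 13 once the sequence trend was taken out. The log2 ratio of LARP7 was -0.65, -0.65, -0.94 and -0.34 under these 4 settings. In the other settings run, second copies of genes kept among them, these counts moved by less than 1.5 times. Of 596 values of named genes under alternatives, 0 called ones changed sign. A call needs a log2 size of 1, scaling shifts it by about 0.15, and a pseudocount cannot change a sign. Those settings could therefore not have changed the sign of a called gene. Of 47 list medians 11 changed sign on scaling, and of 44 8 did so with the trend removed. No paired analysis was possible because each group is 1 library. At this depth short genes near 1 RPKM rest on few reads, about 9 for RNU6-925P.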
